A study of Mus musculus with 8 samples.

Results

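Sperm of male mice on a low protein or a calorie-restricted diet were set against sperm of males on a control diet, with both restricted diets taken as 1 arm. The restricted arm held 3 arrays, low protein C and D and caloric restriction H, and the control arm held 3 arrays, control A, B and G, so that 6 of the 8 arrays of the series entered the comparison. Its members are the genes for which every restricted array lay on one side of every control array. Of 13587 genes tested, 4499 (33.11%) were such genes. In 2040 of them the restricted arrays lay above all controls, and that share (15.0% of the genes tested) is the background against which every upward count below is read. In 2459 they lay below all controls, a background of 18.1%.

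All animals were of the strain C57/Bl6, and the sperm were taken from the caudal epididymis. For the control and low protein groups the males stayed on their diet to an age of 9 to 12 weeks and were then housed with control-fed females for a short mating period. No age or schedule is given for the caloric restriction male or males, which leaves any effect of age or handling confounded with that diet: they cannot be told apart. The labels give a purity above 99.5% by microscopy and a PCR screen that discarded preparations in which Actb or Myh11 could be detected. The other 2 arrays were of epididymal tissue, control E and low protein F. The labels do not say whether arrays of a group came from separate animals, so the p-values below rest on sample-to-sample spread that may be no more than technical.

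Mature sperm make almost no new RNA. What they carry is largely left over from spermatogenesis, when spermatids build the flagellum and the acrosome and replace histones with protamines, and it is joined during epididymal transit by small RNAs and other material from the epithelium. The flagellum is built on an axoneme, a cylinder of microtubules moved by dynein motors, and is wrapped by the outer dense fibres and the fibrous sheath. Genes of motile cilia and flagella are switched on by transcription factors of the RFX family, which bind a paired DNA element called the X-box, and by FOXJ1. In a preparation of many cells, fewer cells of a type and less RNA per cell cannot be told apart.

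The start regions of 6 genes called higher in restricted sperm are shown because each holds a paired X-box, an element that genes higher in restricted sperm held more often than all genes did. The element searched was GTNNCC, then 0 to 3 bases, then GGNNAC, which reads alike on both strands. The windows are from RefSeq promoters of GRCm38.p6, written 5′ to 3′ on the strand of the gene. Capitals mark the match, and each window ends at or before the gene start. The 6 genes were chosen after their values were seen. They are those of largest difference among the genes called higher whose match lies wholly before the start, with a single chromosome left out of the choice.
Cfap43: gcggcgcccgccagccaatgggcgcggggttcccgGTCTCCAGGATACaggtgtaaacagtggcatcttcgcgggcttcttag
Marchf10: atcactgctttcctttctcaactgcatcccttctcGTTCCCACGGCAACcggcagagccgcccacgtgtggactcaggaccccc
Fam183b: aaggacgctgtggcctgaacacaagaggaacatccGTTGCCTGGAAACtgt
1700034J05Rik: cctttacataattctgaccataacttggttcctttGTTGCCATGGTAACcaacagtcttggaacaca
Zbbx: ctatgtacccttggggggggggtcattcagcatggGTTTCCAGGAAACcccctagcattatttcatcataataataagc
Zcwpw2: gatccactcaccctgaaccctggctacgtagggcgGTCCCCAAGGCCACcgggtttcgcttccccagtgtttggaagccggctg

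The windows lie at chr19:47837386-47837468 for Cfap43, chr11:105456817-105456900 for Marchf10, chr11:58801961-58802011 for Fam183b, chr6:146954422-146954488 for 1700034J05Rik, chr3:75143773-75143851 for Zbbx and chr9:118040886-118040969 for Zcwpw2, all on the minus strand. Cfap43, which encodes a protein of the flagellar axoneme, was at 8.72, 8.40 and 8.29 (log2 intensity) on control A, B and G and at 9.40, 9.64 and 10.43 on restricted C, D and H. Zcwpw2 was at 6.24, 6.30 and 5.82 in control and at 7.11, 7.56 and 7.03 in restricted sperm. All 6 genes were lower in the epididymis arrays than in any sperm array, between 4.62 and 6.48. A match is a description of these letters and does not show that a factor binds there.

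Over all genes, the X-box match was more frequent among genes higher in restricted sperm. A promoter was found for 10824 of the 13587 genes tested. The paired element stood in the window from 250 bases before to 50 after the start for 181 of 1670 higher genes (10.84%), 34 of 293 genes called higher (11.6%), 88 of 1970 lower genes (4.47%) and 650 of all 10824 (6.01%). This element was searched only after the shares of a single arm, GTTGCC, had been seen. The single arm was present on either strand in 22.75% of higher genes, 24.91% of genes called higher, 12.99% of lower genes and 15.47% of all. A match of the paired element can hold the single arm, so the counts overlap.

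The other motifs were described in the same 4 sets. The GC box GGGCGG was found in 57.54% of higher genes, 44.03% of genes called higher, 71.98% of lower genes and 64.97% of all. Median GC content of the windows was 58.33%, 55.5%, 61.33% and 60.33% in the same order. The amino acid response motif TGATGNAA was found in 3.29% of higher genes, 4.44% of genes called higher (13 of 293), 2.49% of lower genes and 2.73% of all. The cyclic AMP response element TGACGTCA, bound by the spermatid regulator CREM, stood in 3.95%, 3.75%, 2.39% and 3.28%, and its core TGACG, which it contains, in 33.83%, 30.38%, 32.94% and 33.07%. CCAAT was present in 44.91%, 43.0%, 40.61% and 41.5%, and the E-box CACGTG in 10.54%, 9.56%, 13.05% and 11.23%. For the sterol element TCACNCCAC the shares were 1.56%, 1.71%, 1.42% and 1.47%. All were searched on both strands.

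**Figure D1:**
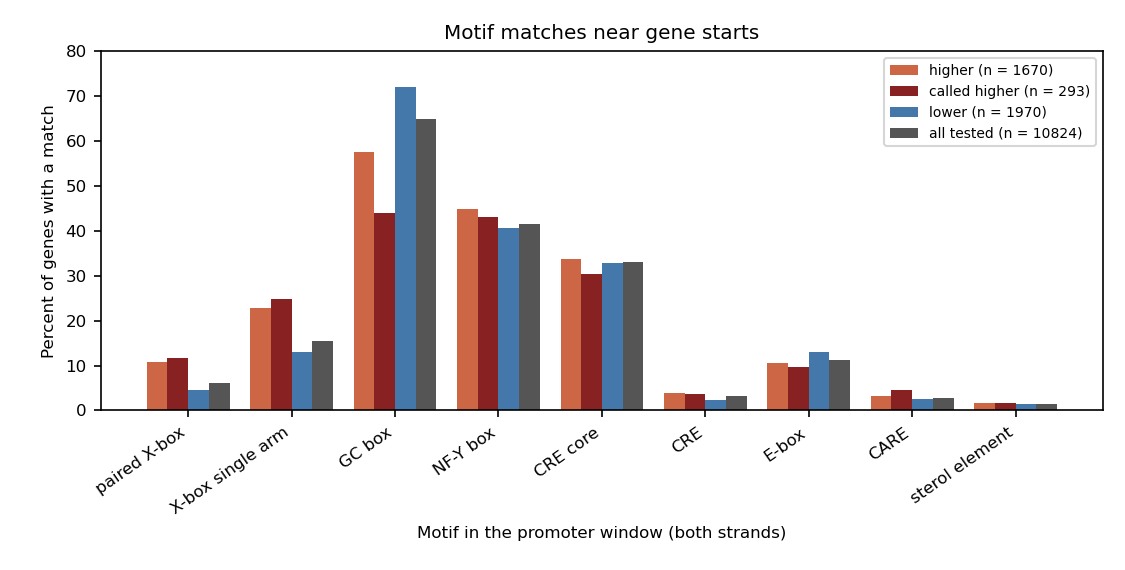
Percent of genes (y axis) with at least 1 match of each motif (x axis) in the promoter window, for genes higher in restricted sperm, genes called higher by limma, genes lower in restricted sperm and all genes tested with a promoter; NF-Y box stands for the CCAAT motif. The paired X-box and its single arm are more frequent in the higher genes (10.84% and 22.75%) than in all genes (6.01% and 15.47%), and the GC box is less frequent.

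The data were log2 intensities, normalised by the depositors. Array D stood apart: its correlation over the tested genes with the other sperm arrays was 0.71 to 0.86, while the 10 other pairs of sperm arrays gave 0.85 to 0.98. The arms also differed in how closely they resembled the epididymis. Control A, B and G correlated with epididymis E at 0.71, 0.80 and 0.81, and restricted C, D and H at 0.66, 0.34 and 0.54, with no overlap. All 10 late spermatid markers were brighter on each of the 6 sperm arrays than on either epididymis array. Among them was Prm1, at 9.88 to 11.44 in sperm against 6.57 and 6.78. These markers show sperm RNA and do not measure purity. The epididymal epithelium list also gave signal on the sperm arrays, with means of 7.51 to 8.31 against 9.30 and 9.19 in epididymis. Actb, one of the 2 genes of the screen, was at 10.49 to 11.61 in sperm and 12.68 and 12.50 in epididymis.

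Restricted sperm had higher levels of genes that build the sperm tail, the acrosome and the germ cell's RNA machinery. Of 195 genes tested from 10 germ cell lists, 157 (80.51%) lay above all controls, against 15.0% of all genes, and 4 lay below. Their median difference was 0.87 on the log2 scale, where that of all genes was -0.07. Limma called 59 of them higher and 0 lower; at an unadjusted p under 0.05 only 2 of these lists held a lower gene, 1 each. Over all genes, with the threshold of 0.05 on the adjusted p, limma called 369 higher (2.72% of the genes tested) and 4 lower (0.0294%). Of the 369, 310 were outside these lists. All 373 called genes were among the non-overlapping ones, which rest on the same values and are no separate support. The filter on low values used the mean over all 8 arrays, and 152 of the 2040 higher genes, 42 of them called, would not have passed it with the restricted arrays at the control mean, so those genes had to differ. They include 16 of the 157 germ cell list genes, 9 of them called. With no filter, 178 of all 230 listed germ cell genes measured (77.39%) lay above all controls, against 13.27% of all 19411 genes.

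The largest differences among called genes were in little-studied germ cell genes and in axonemal genes. Dcdc2c, a doublecortin-domain gene whose family binds microtubules, was at 6.30, 5.89 and 5.73 in control and 7.06, 7.46 and 8.55 in restricted sperm. It rose 3.29-fold, by 1.72 ± 0.34 (SE, 3 against 3 arrays; adjusted p by limma 0.0413), and the arms were 0.76 apart. Ccdc192, a coiled-coil gene, was at 5.74, 5.45 and 5.51 in control and 6.70, 6.74 and 7.97 in restricted sperm, and rose by 1.57 ± 0.31. Tmco5, a transmembrane coiled-coil gene, Iqub, an IQ-motif gene, A26c3, an actin-related gene, Rimklb, Gm1698, Fam71e2, Ms4a5, Efhb and Fbxl13 rose by 1.40 to 1.57. Of the genes named here all but Rimklb and Fam71e2 passed the filter only through the restricted arrays. In Dcdc2c and Ccdc192 array H was the highest of the restricted arrays and the 2 low protein arrays lay between it and the controls.

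The widest separations were not always the largest differences. Lrrc9 had the widest gap between the arms, 0.97, with 6.79, 6.71 and 6.63 in control and 7.76, 7.88 and 8.66 in restricted sperm. Lrrc6, which is needed to assemble dynein arms, had a gap of 0.95, and Capza3, an actin-capping protein of spermatids, a gap of 0.93; both passed the filter only through the restricted arrays. Capza3 was at 5.81, 5.79 and 5.92 in control and 6.85, 7.17 and 7.57 in restricted sperm, a rise of 1.36 ± 0.20. Efcab3 had a gap of 0.89 and a difference of 1.53 ± 0.35 but was not called (adjusted p by limma 0.0521). It too passed the filter only through the restricted arrays. Its value on array H, at 8.59, lay far above those on C and D, at 7.14 and 7.19.

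**Figure D2:**
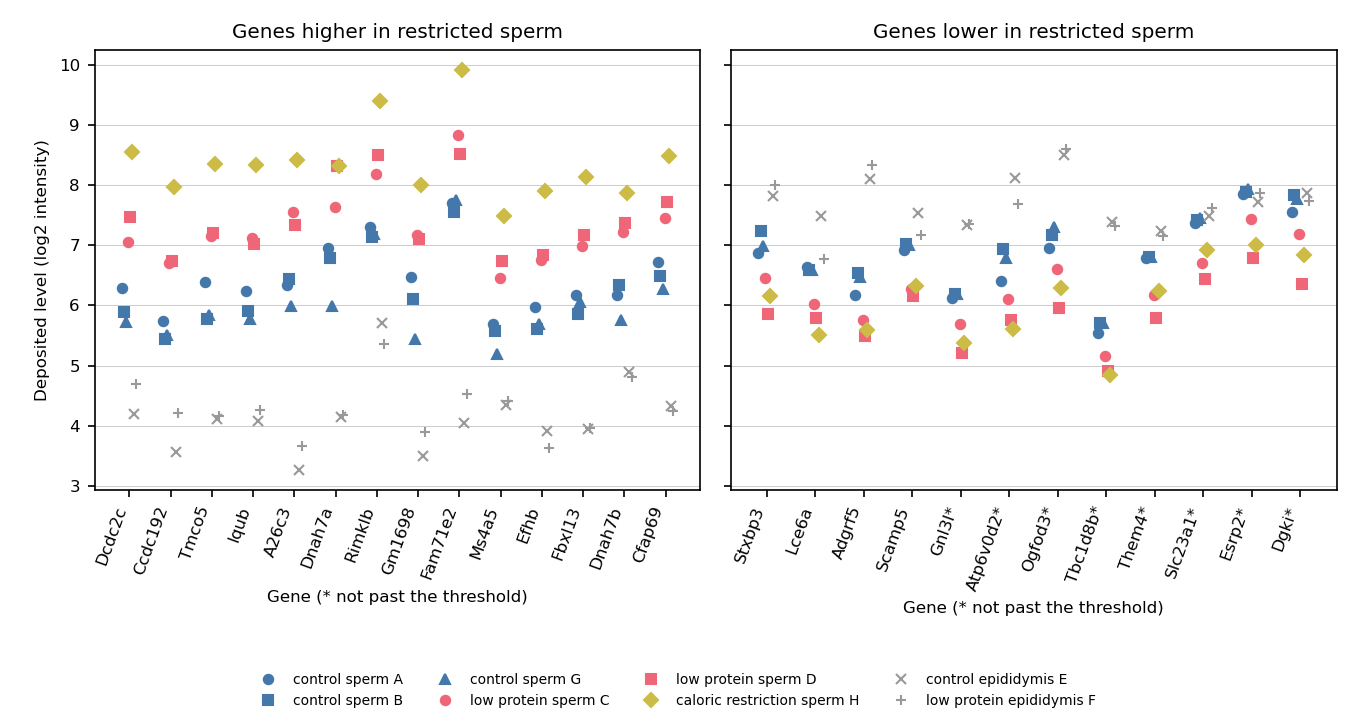
Deposited level (y axis, log2 intensity) of genes higher (left) and lower (right) in restricted sperm, 1 point per array. On the left are the 14 called genes of largest difference. On the right are the 4 called lower and the 8 lower genes of smallest p that were not past the threshold, marked *. Blue points are control sperm, red low protein sperm, yellow caloric restriction sperm and grey crosses epididymis; the arms do not overlap in any gene, and the epididymis lies below the sperm arrays on the left and mostly at or above them on the right.

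Among axonemal dyneins and their assembly factors, 18 of 24 genes tested lay above all controls, 1 lay below, and 6 were called higher. Dnah7a, an inner arm heavy chain, was at 6.96, 6.79 and 5.999 in control and 7.64, 8.31 and 8.33 in restricted sperm and rose by 1.51 ± 0.28. Dnah7b and Dnah7c rose by 1.39 ± 0.22 and 1.24 ± 0.18, but these 3 are near-identical copies whose probes may share signal, so their values are uncertain one by one. Dnah8, an outer arm heavy chain used in sperm, was at 7.83, 7.83 and 7.54 in control and 8.58, 8.84 and 9.20 in restricted sperm and rose by 1.14 ± 0.19. Dnaic1, an outer arm intermediate chain, rose by 0.89 ± 0.16, and Dnali1 was also called. Dnah11, a heavy chain of motile cilia, was the 1 gene of this list below all controls, with a difference of -0.25 ± 0.14 that was not called (adjusted p by limma 0.299).

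The list of the central pair, radial spokes, tektins and other flagellar proteins had a median of 1.06, which was 0.67 without array H. All 31 genes tested had a positive difference, 27 lay above all controls, and 13 were called higher, 5 with a variance trend. Of the 27, 3 passed the filter only through the restricted arrays, all of them called. Spag17, a central pair protein, was at 6.65, 6.63 and 6.13 in control and 7.46, 7.68 and 7.98 in restricted sperm. Hydin, of the same structure, was at 7.42, 7.32 and 7.05 in control and 8.01, 8.31 and 9.02 in restricted sperm and rose by 1.19 ± 0.25. Rsph1, of the radial spoke head, was at 7.98, 7.84 and 7.72 in control and 8.82, 8.71 and 9.72 in restricted sperm and rose by 1.24 ± 0.26. Enkur differed by 1.48 ± 0.38 and was not called (adjusted p by limma 0.0695), with array H at 8.77 and C and D both at 7.18.

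Of 18 fibrous sheath, dense fibre and mitochondrial sheath genes, 15 lay above all controls, 1 (Gsk3a) lay below, and 9 were called higher, 3 with a variance trend. Odf4, an outer dense fibre protein, was at 7.02, 6.76 and 6.75 in control and 7.84, 7.97 and 8.11 in restricted sperm and rose by 1.13 ± 0.16. Cabyr, a calcium-binding protein of the fibrous sheath, was at 8.00, 7.83 and 7.85 in control and 8.57, 9.20 and 9.19 in restricted sperm, a rise of 1.09 ± 0.20. Akap4, the main scaffold of the sheath, was at 8.59, 8.43 and 8.60 in control and 9.24, 9.78 and 9.68 in restricted sperm. In all 3 genes C was the lowest restricted array and lay above every control. Fsip2 differed by 1.63 ± 0.46 without being called, with array H at 8.78 and C and D at 7.01 and 6.73. Of the 15 genes above all controls 2 passed the filter only through the restricted arrays: Fsip2 and Spata19, which was called.

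Of 23 genes of the acrosome and of zona binding, 18 lay above all controls, none below, and 5 were called higher. Adam3, needed for sperm to pass into the oviduct and bind the zona, was at 7.85, 7.41 and 7.60 in control and 8.53, 8.66 and 8.97 in restricted sperm and rose by 1.10 ± 0.18. Spata16 and Dpy19l2, both needed to form and anchor the acrosome, rose by 1.01 ± 0.17 and 0.92 ± 0.17. Izumo1, the sperm ligand for egg fusion, was at 6.43, 6.33 and 6.12 in control and 7.01, 7.005 and 8.70 in restricted sperm. Its difference of 1.28 ± 0.40 was not called (adjusted p by limma 0.107), and Zp3r, Spaca7 and Spaca1 were likewise led by array H and not called. Of the 18 genes above all controls 3 passed the filter only through the restricted arrays: Spaca7, Spaca1 and 1 called gene.

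Ion transport and signalling genes of the flagellum followed, with 12 of 14 above all controls, 1 (Hvcn1) below and 4 called higher, 2 with a variance trend. Of the 12, 2 passed the filter only through the restricted arrays, and none of those was called. Adcy10, the bicarbonate-sensitive adenylyl cyclase of sperm, was at 7.22, 7.10 and 6.91 in control and 7.96, 8.51 and 8.46 in restricted sperm. Catsper2, a pore subunit of the sperm calcium channel, was at 7.94, 7.91 and 7.94 in control and 8.49, 8.98 and 8.89 in restricted sperm and rose by 0.86 ± 0.17. Kcnu1, the sperm potassium channel, differed by 1.34 ± 0.30 (adjusted p by limma 0.0503) and was just outside the threshold. In Catsper2 the controls were within 0.030 of one another, which the restricted arrays were not.

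Genes of sperm chromatin packaging were higher with fewer calls. Of 17 tested, 12 lay above all controls and 2, Brdt and Hspa1l, were called, and neither was with a variance trend. Hspa1l is a chaperone and is counted again in the chaperone list below. Brdt, a bromodomain protein that reads acetylated histones in spermatids, was at 6.51, 6.28 and 6.42 in control and 7.13, 7.22 and 7.90 in restricted sperm. Prm1, a protamine, was at 10.69, 10.58 and 9.88 in control and 10.80, 11.44 and 10.85 in restricted sperm, a difference of 0.65 that was not called. Tnp2, a transition protein, overlapped between the arms, since restricted H at 10.95 lay below control A at 11.02. In this list array D had the highest median difference, 1.03, against 0.43 for C and 0.59 for H.

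RNA-processing and meiotic genes of the germ line were also higher. Of 16 piRNA pathway genes 13 lay above all controls and 4 were called: Ddx4, the germ cell helicase, Tdrd6, a chromatoid body protein, Mael and Rnf17, which rose by 1.11 to 1.31. With a variance trend or a robust prior 2 of them were called. Of the 13 genes above all controls 2, among them Tdrd6, passed the filter only through the restricted arrays. Ddx4 was at 6.75, 6.51 and 6.47 in control and 7.40, 7.81 and 8.44 in restricted sperm. Of 9 meiosis genes 6 lay above all controls. Syce1 and Syce2, of the synaptonemal complex, were called, with rises of 1.19 ± 0.20 and 1.00 ± 0.22. With either other prior 1 of them was called. Of the 6 meiosis genes above all controls, 1 passed the filter only through the restricted arrays, and it was not called. The meiotic prophase markers Sycp1, Sycp3, Hormad1, Stra8 and Mybl1 were under the filter on low values and were not tested. Of the earlier germ cell markers that were tested, Ccna1 and Piwil2 lay above all controls. Dmc1 overlapped, with restricted H at 5.99 below control A at 6.26. With no filter, 13 of 22 meiosis genes measured (59.09%) lay above all controls, against 13.27% of all genes.

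Among actin-like proteins and spermatid factors, 15 of 17 genes lay above all controls and 9 were called higher, 4 with a variance trend. Of the 15, 3 passed the filter only through the restricted arrays, all of them called. Crem, the transcriptional activator of many spermatid genes, was at 7.30, 7.49 and 7.31 in control and 8.13, 8.49 and 8.52 in restricted sperm and rose by 1.01 ± 0.17. Fscn3, a testis fascin, was at 7.06, 7.01 and 7.08 in control and 8.02, 8.41 and 7.96 in restricted sperm. Of 26 sperm kinases and germ cell forms of metabolic enzymes, 21 lay above all controls, 1 (Eif4a1, a general translation factor on that list) lay below, and 5 were called higher, 2 with a variance trend. Pgk2, the sperm form of phosphoglycerate kinase, was at 10.26, 10.05 and 9.90 in control and 10.75, 11.45 and 10.89 in restricted sperm and rose by 0.96 ± 0.21.

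Grouped by the stem of the gene symbol, the same structures came first. Of 28 Cfap genes, named for cilia and flagella, 24 (85.71%) lay above all controls and none below. The shares were 84.62% of 13 Dnah genes, 65.22% of 23 Tex genes, 64.29% of 14 Ift genes, of the transport system that builds cilia, and 64.0% of 25 Spata genes. Of 12 Ttll genes, which modify axonemal tubulin, 9 lay above. Of 109 Ccdc genes, a stem that marks only a coiled coil, 48.62% lay above. Stems with the largest shares below all controls were Aldh with 43.75% of 16 genes, Wfdc with 42.86% of 14, Lrp with 41.67% of 12 and Snora with 38.46% of 13.

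Without array D the counts in the germ cell lists changed little, but leaving out an array can only keep or raise such a count. With C and H alone, 18 of 24 dynein genes lay above all controls, 27 of 31 in the central pair and spoke list, 18 of 23 in the acrosome list and 12 of 17 in the packaging list. The medians were 0.91, 1.13, 0.96 and 0.56, against 0.90, 1.06, 0.91 and 0.70 with D. Without D 16.99% of all genes lay above all controls. Limma's count of calls did depend on single arrays. It was 654 without D (627 higher, 27 lower), 1428 without C (958 higher, 470 lower), and 0 without A, B, G or H, where 1728 to 3406 genes had an unadjusted p under 0.05.

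**Figure D3:**
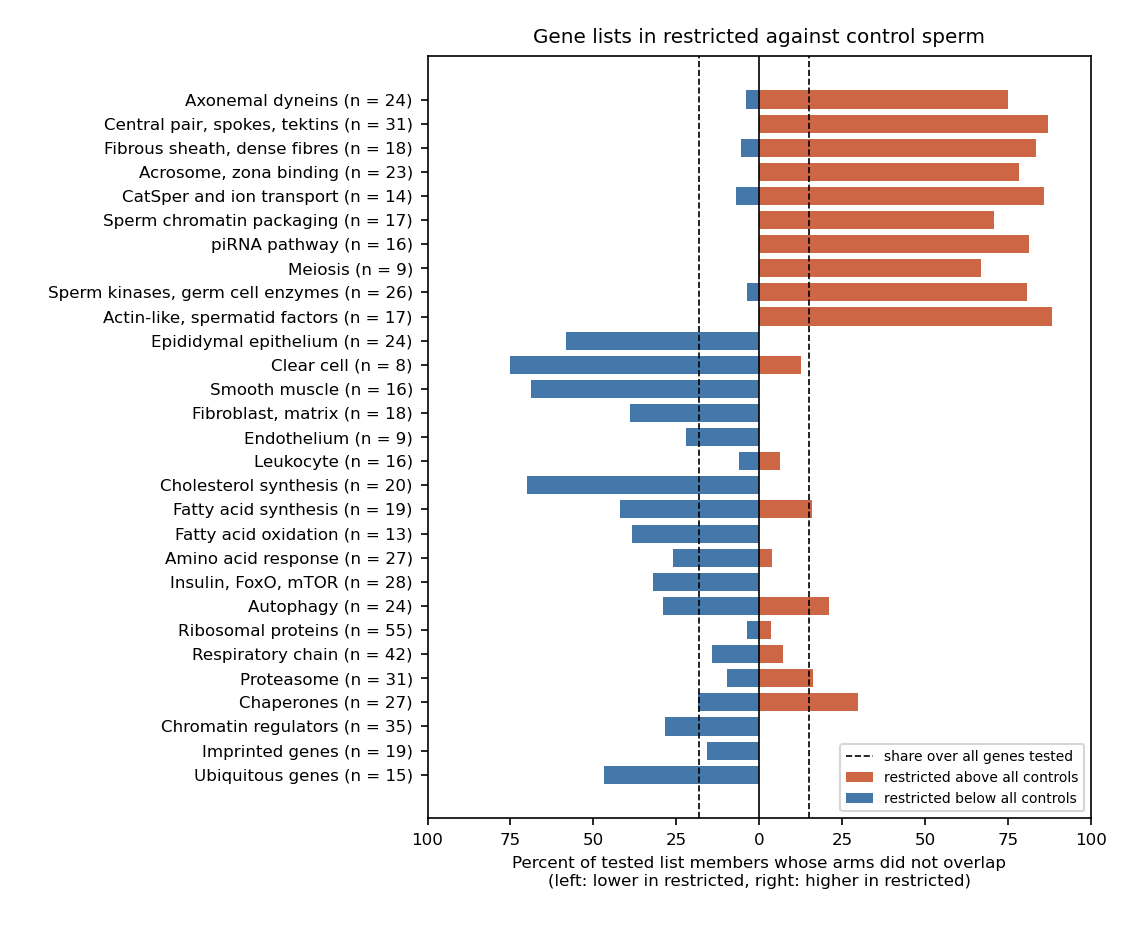
Percent of tested members of each gene list (rows, with the number tested; the erythroid list, with 1 gene tested, is not drawn) for which all restricted arrays lay above all controls (right) or below all controls (left); dashed lines mark the shares over all genes tested, 15.0% and 18.1%. The 10 germ cell lists reach 66.7% to 88.2% on the right, and the epididymal epithelium, clear cell, smooth muscle and cholesterol synthesis lists exceed 50% on the left.

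Genes lower in restricted sperm were more numerous but closer to the controls. Their median difference was -0.44, against 0.67 in the higher genes, and the median gap between the arms was 0.09, against 0.24. A gap of at least 0.25 was found for 227 lower and 999 higher genes. All 327 genes with a difference of at least 1 upward were non-overlapping, and so were 91 of the 104 with a difference of at least 1 downward. The number of genes on each side also depended on how arrays were scaled: the higher genes were 45.3% of the non-overlapping ones as deposited, 55.2% with each array centred on its median and 55.0% after cyclic loess.

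Limma called 4 lower genes. Stxbp3, which takes part in vesicle fusion at the cell membrane, was at 6.88, 7.24 and 6.98 in control and 6.46, 5.86 and 6.16 in restricted sperm and fell by 0.88 ± 0.19 (adjusted p by limma 0.0493). Lce6a, of the late cornified envelope family, was at 6.64, 6.60 and 6.59 in control and 6.02, 5.79 and 5.50 in restricted sperm and fell by 0.84 ± 0.17. Scamp5, a secretory carrier membrane protein, was at 6.92, 7.02 and 7.004 in control and 6.27, 6.15 and 6.33 in restricted sperm. Its gap of 0.59 was the widest of the lower genes, and it fell by 0.73 ± 0.15. Adgrf5, an adhesion receptor on the endothelium list, fell by 0.79 ± 0.17. All 4 were lower in each sperm array than in either epididymis array, and without D they stayed past the threshold, with adjusted p by limma of 0.0291 to 0.0409. They were not called without A, B, G or H. Stxbp3 and Adgrf5 were also lost under each of the other scalings, with adjusted p by limma of 0.0521 to 0.0615.

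Many lipid synthesis genes lay below the controls without passing the test. Of 20 cholesterol synthesis genes 14 lay below all controls and none above, with a median of -0.64. Limma called 0 under each of the 3 variance priors tried (main, trend and robust), and 16 were lower at an unadjusted p under 0.05. Nsdhl, a sterol dehydrogenase, was at 8.25, 8.76 and 8.69 in control and 8.17, 6.71 and 7.87 in restricted sperm, a difference of -0.98 ± 0.34 (adjusted p by limma 0.127). Array D was the lowest, and without it the list's median was -0.45 and 14 genes lay below all controls, where 26.74% of all genes did. The list's mean level was 8.72 on epididymis E and 8.62 on F, against 6.85 to 7.91 on the sperm arrays. For the fatty acid synthesis list it was 8.74 and 8.69, against 7.20 to 8.32 on the sperm arrays. Whether the level in epididymis bears on these differences was not tested.

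Among fatty acid synthesis genes 8 of 19 lay below and 3, Elovl5, Me1 and Dgat2, above all controls. Scd2, a stearoyl-CoA desaturase, was at 9.59, 10.18 and 10.11 in control and 9.07, 7.82 and 8.96 in restricted sperm, a difference of -1.34 ± 0.32 (adjusted p by limma 0.0605). Without D it fell by 0.94 and was past the threshold (adjusted p by limma 0.0291), as it was without C (0.0322), after quantile normalization (0.0421) or cyclic loess (0.0428) and with all 8 arrays (0.0466). Cyp4a12a, a fatty acid hydroxylase, was at 8.47, 8.56 and 8.49 in control and 7.97, 6.14 and 6.85 in restricted sperm, and passed without D (adjusted p by limma 0.0437) or without C (0.0211). The list's count below all controls was 13 without A and 12 without C, where 30.56% and 28.49% of all genes lay below. Limma called 0 genes of this list, and 3 were higher and 12 lower at an unadjusted p under 0.05.

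Nutrient-sensing lists held smaller shares of lower genes, which depended on single arrays. Of 27 amino acid response genes 7 lay below and 1, Atf3, above all controls, and of 28 genes of insulin, FoxO and mTOR signalling 9 lay below. Without A these counts were 14 and 19, where 30.56% of all genes lay below, and without C they were 12 and 17, where 28.49% did. Shmt2, a mitochondrial serine enzyme, was at 8.31, 8.55 and 8.50 in control and 8.09, 6.27 and 7.54 in restricted sperm. Mlst8, a subunit shared by both mTOR complexes, was at 6.54, 6.72 and 6.92 in control and 6.23, 6.09 and 6.12 in restricted sperm, a difference of -0.58 ± 0.16 (adjusted p by limma 0.0870). Limma, with either prior tried beside the main one, called 0 genes in both lists. At an unadjusted p under 0.05, 6 amino acid response and 8 insulin pathway genes were lower and none higher.

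Counts in housekeeping lists changed with the array left out, and so did the share of all genes below all controls. That share was 18.1% with all sperm arrays, 30.56% without A, 28.49% without C, 26.74% without D and 22.37% without H. Of 15 ubiquitously expressed genes 7 lay below all controls, also without D, and 12 without A. Their median was -0.48, or -0.25 without D, and 8 were lower at an unadjusted p under 0.05, while limma called 0. Of 55 ribosomal protein genes 2 lay above and 2 below all controls, and their median difference from the control mean was 0.08 on C, -0.91 on D and -0.14 on H. The list's median of -0.34 became -0.05 without D, and its count below all controls was 21 without A and 25 without C. Proteasome genes had 5 of 31 above and 3 below. Without A 9 lay below, and 7 without C or without H, near or under the share of all genes. Psma8, the germ cell form of a core subunit, was at 6.53, 6.44 and 5.99 in control and 7.02, 7.19 and 6.91 in restricted sperm. Chaperones had 8 of 27 above and 5 below (10 below without A and 11 without H), and the 4 called higher, Clgn, Dnajb8, Hspa4l and Hspa1l, are forms known from the testis, none of them called with a variance trend. The chaperone median changed sign without D, from -0.13 to 0.06.

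Of 35 chromatin regulators 10 lay below and none above all controls. Without A 20 lay below and 2 above, where 30.56% and 18.69% of all genes did. Without C the counts were 15 and 3, where the shares of all genes were 28.49% and 19.2%. Smarcd3, a SWI/SNF subunit, was at 10.25, 10.53 and 10.61 in control and 10.22, 8.05 and 9.79 in restricted sperm, so that C and control A were 0.03 apart and D set most of the difference of -1.11 ± 0.46 (-0.46 without D, adjusted p by limma 0.175). Ppard, a lipid-sensing nuclear receptor, was at 7.92, 8.24 and 7.92 in control and 7.63, 6.93 and 7.05 in restricted sperm. Its arms were 0.28 apart, and its difference of -0.82 ± 0.21 was not called (adjusted p by limma 0.0707; -0.69 without D). Of 19 imprinted genes 3, Igf2r, Kcnq1 and Impact, lay below, a share near the background. Without B 6 did, where 21.24% of all genes lay below. Without A or D 5 did, where 30.56% and 26.74% of all genes lay below.

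Markers of epididymal epithelium and muscle lay lower in the restricted arrays. Of 24 epididymal epithelium markers tested (42 listed) 14 lay below all controls, of 8 clear cell markers 6, of 16 smooth muscle markers 11, of 18 fibroblast and matrix markers 7, and of 9 endothelial markers 2 (4 without D). Over all 38 epithelium markers measured, with no filter, 14 lay below, or 36.84%. Leukocyte markers did not share this side: of 16, 1 lay below and 1, Adgre1, above all controls (9 above without G), with a median of 0.18. Of all genes 26.74% lay below without D and 16.92% lay above without G. The epithelium list's mean was 8.16, 8.31 and 8.24 in control and 7.94, 7.51 and 7.72 in restricted sperm, and 9.30 and 9.19 in epididymis. The smooth muscle mean was 7.57, 7.55 and 7.39 in control and 7.07, 6.74 and 7.20 in restricted sperm. For both lists, and for clear cells, the exact two-sided permutation p was 0.10, the smallest that 3 against 3 arrays allow (0.233 after Benjamini-Hochberg adjustment over 7 lists). The fibroblast, endothelium, leukocyte and erythroid means overlapped, with exact permutation p of 0.20 to 0.40.

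Single markers showed the same sides. Gpx3, a secreted epididymal glutathione peroxidase, was at 11.22, 11.59 and 11.64 in control and 11.13, 9.70 and 10.70 in restricted sperm. Acta2, smooth muscle actin, was at 9.65, 9.81 and 9.43 in control and 8.73, 6.92 and 9.15 in restricted sperm, against 12.66 and 12.70 in epididymis. Actb was 0.56 and Myh11 0.53 lower on average (-0.56 ± 0.21 and -0.53 ± 0.20, adjusted p by limma 0.141 and 0.148). Car2, a carbonic anhydrase on the clear cell list, went the other way: it rose by 0.87 ± 0.17 and was brighter in all sperm arrays than in epididymis. Adding the mean of 58 epithelium, muscle and fibroblast markers to the fit left 0 calls, with 1807 higher and 1342 lower genes at an unadjusted p under 0.05. That mean was 7.84 to 7.90 in control and 7.28 to 7.56 in restricted sperm, so diet and marker level cannot be told apart.

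The members' levels in the epididymis arrays differed by side. The rule that compares the arms did not use these arrays. The filter on low values and the choice of probe set did, through the mean over all 8 arrays, so the levels are not independent of the choice of genes. The median level was 6.22 on both E and F for the higher genes, 7.65 and 7.62 for the lower genes, and 6.92 and 6.90 for all genes. Of the higher genes 71.81% were under the median of all genes in epididymis, and of the lower genes 20.74%. Control sperm exceeded epididymis by more than 1 on the log2 scale in 34.9% of the higher genes, 0.24% of the lower genes and 5.80% of all; these shares reuse the control arrays.

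In the epididymis itself, low protein F against control E showed no like shift of the same genes. F was above E for 47.4% of the higher genes, 42.05% of the lower genes and 46.74% of all genes. The median difference was -0.01, -0.03 and -0.01. With 1 array per diet there is no spread to test these against.

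**Figure D4:**
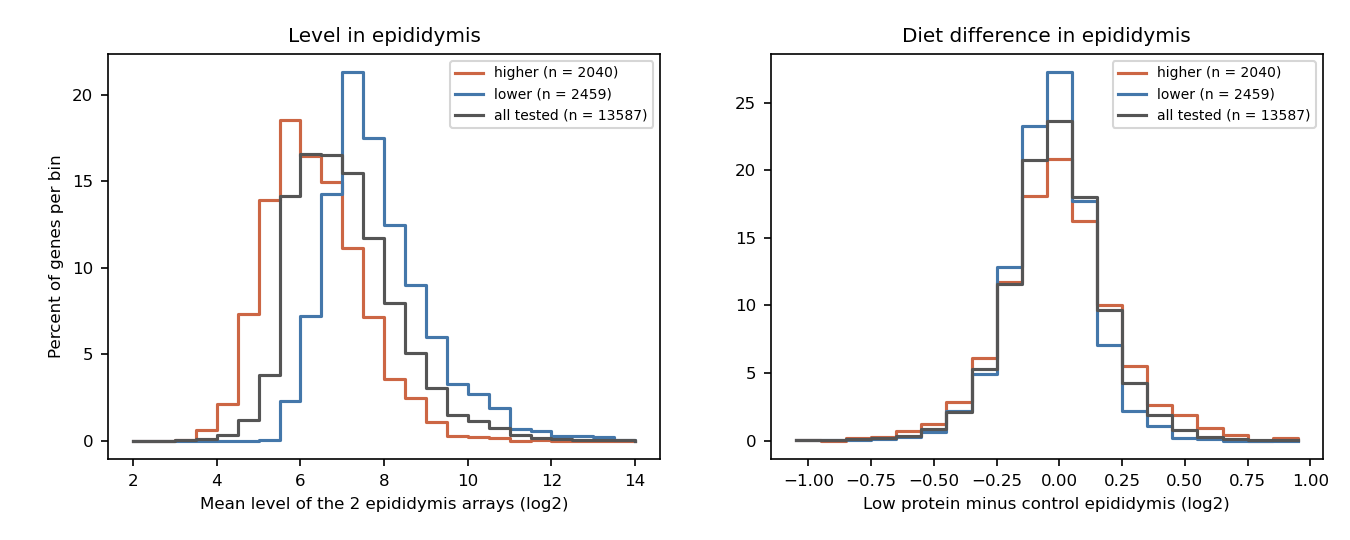
Percent of genes per bin (y axis) by mean level of both epididymis arrays (left, log2) and by low protein F minus control E (right, log2; the few values beyond the axis are not drawn), for genes higher and lower in restricted sperm and for all genes tested. On the left the higher genes sit below and the lower genes above the whole set, with medians on array E of 6.22, 7.65 and 6.92, and on the right the 3 sets are centred near 0.

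The 3 restricted arrays did not contribute alike. In 1454 of the 2040 higher genes (71.27%) low protein C was the restricted array nearest the controls, and the farthest was H in 51.57% and D in 46.91%. The median differences from the control mean were 0.42 on C, 0.72 on D and 0.74 on H. In the lower genes C was nearest in 66.78% and D farthest in 70.72%, with medians of -0.28, -0.63 and -0.40. Control A was the control nearest the restricted arm in 1230 higher and 1693 lower genes.

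Lists split by which restricted array stood farther out. In the central pair and spoke list the medians were 0.63 on C, 0.83 on D and 1.61 on H, and in the acrosome list 0.47, 0.73 and 1.42. In the list of actin-like proteins and spermatid factors D and H were alike, at 0.98 and 0.91, and in the cholesterol list D was farthest, at -1.04 against -0.37 on C and -0.47 on H. The fits of each diet alone share the 3 controls, so their values are only set side by side: low protein against control and caloric restriction against control gave 1.10 and 2.36 for Iqub, 1.40 and 1.74 for Dnah7a, 1.06 and 1.26 for Odf4, 1.16 and 0.91 for Fscn3, and -1.45 and -1.66 for Cyp4a12a. With 1 caloric restriction array, a difference between the diets was not tested.

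**Figure D5:**
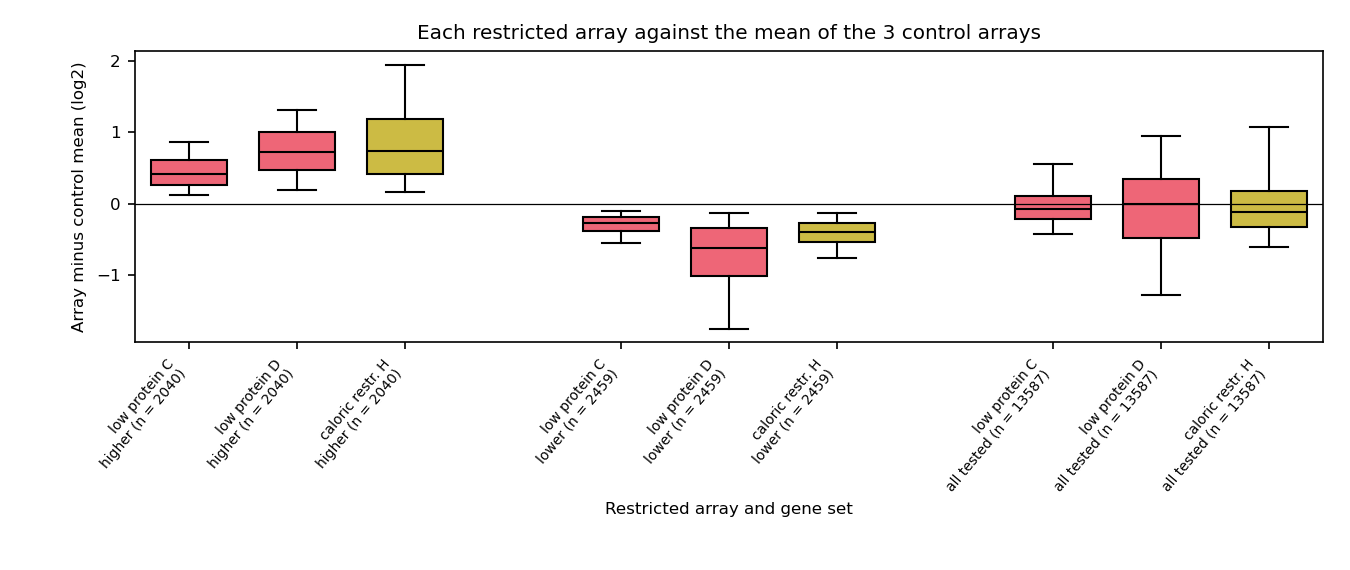
Difference of each restricted array from the mean of the 3 control arrays (y axis, log2) for genes higher in restricted sperm, genes lower in restricted sperm and all genes tested; boxes span the 25th to the 75th percentile of the genes with the median as a line, and whiskers run from the 5th to the 95th percentile. In the higher genes the medians are 0.42 (C), 0.72 (D) and 0.74 (H), and in the lower genes array D has the widest spread and the lowest median, -0.63.

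At the edge of the rule, genes with a difference of at least 1 were given by one near value. Just inside on the upper side were Speer3, Speer4a, Speer4b, Gm5941 and 1700001L19Rik, with gaps up to 0.14. Speer3 was at 6.57, 6.07 and 6.07 in control and 6.70, 6.57 and 9.06 in restricted sperm, so array H alone was far out, and Speer genes are near-identical copies. Just inside on the lower side were Gas2l1, Anxa9, Adam7, Smarcd3 and Ocrl, with gaps of 0.01 to 0.03. Just outside were Tpmt, Ints6l, Syne2, Atp13a4 and Lrp2, in which 1 restricted array reached 0.04 to 0.06 past the lowest control and D lay at 5.48 to 7.38.

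Where a gene had a second probe set above the filter, that probe set usually differed in the same direction. Among 99 higher genes with such a probe set, the second differed upward in 86 and lay above all controls in 68. Of 117 lower genes, the second differed downward in 113 and lay below all controls in 53. Among 482 genes whose arms overlapped, the second differed upward in 140 and downward in 342, so a downward difference was common there too. Of these second probe sets 26 lay above and 62 below all controls. These probe sets were read on the same arrays, so they bear on the probes and not on the samples.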

How the data were processed

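The 6 sperm and 2 epididymis samples were each measured on 1 Affymetrix gene array. Deposited values were on the log2 scale, as their range shows, 1 intensity per probe set. The submitters' processing notes name RMA (per the labels, with no version); annotation and genome build: not given in the sources used here. Array medians ran from 6.08 to 6.17, and the number of arrays limits precision. Of 33660 probe sets 21222 had 1 gene in the platform annotation, 1541 several and 10897 none. Symbols of 21137 were updated through RefSeq identifiers and 85 were kept. The brightest probe set stood for each of 19411 genes, and the lowest 30% by mean over all arrays (5.69 and below) were left out, which left 13587.

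The arms were compared with limma 3.58.1 (R 4.3.3; lmFit, eBayes, two-sided, Benjamini-Hochberg over all 13587 genes, threshold 0.05); ± values are moderated standard errors. The fit was tested on simulated data with independent noise for each gene and no shift shared across an array. That simulation cannot show how the fit behaves on arrays that differ as array D does. Promoters came from RefSeq for GRCm38.p6. Genes were named as the largest differences among called genes, the widest gaps, up to 4 non-overlapping members per list, genes at the edge of the rule, and Actb, Myh11, Smarcd3 and Ppard; other list members were chosen after their values were seen. The members and the 30 lists were chosen with earlier results of these data known.

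Alternatives were other scalings, filters, probe set rules, variance priors, thresholds and fits, a marker covariate, and leaving out each array. Counts per list without 1 array and without the filter, second probe sets and the paired X-box were added after seeing the data.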

Additional observations from a re-analysis of the deposited data

How the results depend on the processing

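The count of called genes (373: 369 higher, 4 lower) kept its size within 1.5 times under median centring (lower 2), quantile normalization, cyclic loess, without a filter, with a gene's probe sets averaged (lower 9) and with robust eBayes. It was 197 (195 higher, 2 lower) with the lowest 50% left out, 168 (165 higher) with an eBayes trend, 973 (949 higher, 24 lower) with a mean per diet, 906 (882 higher, 24 lower) with all 8 arrays, 1091 (910 higher, 181 lower) at an adjusted p under 0.10, and 0 (0 higher, 0 lower) with the marker covariate; the cause was not tested. Leaving out 1 array gave 0 to 1428 calls, 0 to 958 higher and 0 to 470 lower. All 373 called genes kept their direction in each of these fits that held them, except 5 under the covariate. Since the arms of these genes do not overlap, leaving out an array could not reverse a direction. The fits with another filter, another variance prior or all 8 arrays reuse the same difference of means. So this is no sign of stability in those fits. Of the 151 named genes 94 kept their direction under the covariate. Non-overlapping genes (4499: 2040 higher, 2459 lower) were 1226 (999 higher, 227 lower) at a gap of at least 0.25 and 7666 (3807 higher, 3859 lower) over all probe sets. Leaving out 1 array, which leaves fewer values to separate, gave 5072 to 6691, with 2223 to 2609 higher and 2773 to 4152 lower, the latter 4152 without A and 3871 without C. No paired analysis was possible because the labels give each array its own letter and no number is shared between groups.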

Other observations

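Probe sets annotated to microRNA genes, which cannot tell a precursor from a mature molecule, separated the arms less often than all genes did. Of 82 tested, 6 lay below all controls, Mir210, Mir211, Mir330, Mir341, Mir598 and Mir667, and none above, against 18.1% and 15.0% of all genes. Their differences were small, from -0.32 for Mir341 to -0.09 for Mir330. Limma, with the main, trend or robust prior, called 0 of the 82, and an unadjusted p under 0.05 was reached by 1 higher and 0 lower.

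Probe sets with no gene name were less often separated upward than those of 1 gene, and those of several genes more often. Of 5004 unnamed probe sets above the filter, 5.18% lay above all controls and 12.11% below, with a median difference of -0.12. Of 1010 probe sets assigned to several genes, 22.28% lay above and 9.11% below. For 14848 probe sets of 1 gene the shares were 15.26% and 17.67%.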
